A study of Homo sapiens with 7 samples.

Results

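The 38 genes described here are those of the ATF4 and unfolded protein response. They are kept in 2 branches, 23 genes of the amino acid response and 15 genes of the endoplasmic reticulum (ER) sensors and chaperones. They were chosen by name, with earlier results of these data known, from 56236 genes with an assigned transcript. All 38 were found, and all had at least 10 counts in every library. They were measured by RNA-seq in TE5 and KYSE140, established lines of esophageal squamous cell carcinoma grown in DMEM with fetal bovine serum. TE5 cells carried a pLKO.1 lentiviral shRNA, either a scramble control (scramble), or an shRNA against TP63 (shTP63), SOX2 (shSOX2) or the long non-coding RNA CCAT1 (shCCAT1). KYSE140 cells carried scramble, shTP63 or shSOX2. Each of the 7 libraries is the only one of its condition and line, so no difference within a line has a replicate check.

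ATF4 is a transcription factor whose mRNA is translated when the initiation factor eIF2 is phosphorylated, by GCN2 (EIF2AK4) when amino acids are short or by PERK (EIF2AK3) when unfolded proteins fill the ER. It binds, with C/EBP partners, a composite element (the C/EBP-ATF response element, CARE) in genes of amino acid synthesis, amino acid uptake and tRNA charging. The ER has 2 further sensors: ATF6, which is cut to release a transcription factor, and IRE1 (ERN1), which removes a short stretch from XBP1 mRNA so that an active XBP1 protein is made. Cleaved ATF6 and spliced XBP1 act on chaperone genes such as HSPA5 through ER stress response elements (ERSE). Because ATF4 is regulated mainly by translation, its own mRNA is not a measure of its activity.

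The estimated counts summed to between 68532611 and 98036494 per library. TP63 stood at 25.9% of scramble upon TP63 silencing in TE5 and at 26.2% in KYSE140. SOX2 stood at 39.5% of scramble upon SOX2 silencing in TE5 but at 76.9% in KYSE140, and at 67.3% upon TP63 silencing in TE5. The level of CCAT1 was not analysed here. All 7 squamous markers examined reached 1 TPM (a level scaled for transcript length and library size) in at least 1 library, with a summed level of 2316 to 32659.6 TPM. Of the leukocyte, endothelial and simple columnar markers, 1 gene each reached 1 TPM (CD68, CDH5 and CDX2), and of the fibroblast markers COL1A1 and COL3A1 did. In each line the squamous sum was lowest with shTP63, at 2316 against 3499.5 TPM in TE5 scramble and 13390.1 against 20932 in KYSE140 scramble. The squamous list includes TP63, the target of shTP63, which stood at 33.6 against 127 TPM in TE5 and 49.0 against 194 in KYSE140. In KYSE140 the leukocyte sum was also lowest with shTP63, at 2.97 against 9.48 TPM in scramble. In TE5 the leukocyte (117 against 69.8 TPM), fibroblast (27.1 against 15.4) and endothelial (9.28 against 2.37) sums were highest with shTP63. Their part in the results below was not tested. In these bulk libraries fewer cells of a type and less RNA per cell cannot be told apart. The labels place each scramble library on another sequencing lane than the knockdown libraries of its line, so lane and silencing cannot be told apart in a comparison with scramble. In KYSE140 these lane labels differ in the lane number only. The label of TE5 scramble also differs in its letter code, which all other libraries share. The shTP63 and shSOX2 libraries of a line shared a lane, and in TE5 shCCAT1 shared it too.

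The promoters of the 2 branches were searched for CARE and ERSE elements. The RefSeq table (GRCh38.p14) had an entry for 35 of the 38 genes, spanning 250 bases before to 50 after the start. The 8-base CARE core TGATGNAA, searched on both strands, was in the promoters of 7 of 20 amino acid response genes (ASNS, CHAC1, CEBPG, SLC3A2, SLC7A1, SLC1A5 and CARS1) and 1 of 15 ER genes (HERPUD1), against 4.46% of all 27305 genes in the table. The ERSE, CCAAT and CCACG with 9 bases between them, was in 6 of 15 ER genes (XBP1, HSPA5, HSP90B1, PDIA6, CALR and CRELD2) and in 0 of 20 amino acid response genes, against 0.0916% of all genes. HERPUD1 and SDF2L1 held the ERSE-II, ATTGG and CCACG with 1 base between them, which was in 0.0696% of all genes. The stretches of 30 bases below are shown because ASNS, CHAC1 and CRELD2 are among the genes that changed most and HSPA5, XBP1 and HERPUD1 stand for the ER branch. Each is written on the strand that reads the element forward, with the fixed letters of the element in capitals.
ASNS, CARE core, chr7:97872458-97872487, 68 to 61 bases before the start: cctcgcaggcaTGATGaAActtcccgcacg
CHAC1, CARE core, chr15:40953251-40953280, opposite strand to the gene: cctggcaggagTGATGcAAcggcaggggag
CEBPG, CARE core, chr19:33374060-33374089: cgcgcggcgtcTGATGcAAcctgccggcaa
HERPUD1, ERSE-II, chr16:56932016-56932045: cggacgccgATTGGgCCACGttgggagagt
HSPA5, ERSE, chr9:125241385-125241414: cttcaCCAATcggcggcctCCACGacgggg
XBP1, ERSE, chr22:28800597-28800626: gctggCCAATcgcggagggCCACGaccgta
CRELD2, ERSE, chr22:49918549-49918578, opposite strand to the gene: tatggcCCAATccgagttcgCCACGagagg
A match is a description of letters in this window. The genes were chosen as members of pathways that act through these elements. A share above that of all genes could follow from this choice alone. Of the 11 genes that passed a log2 change of 1 or -1 somewhere, given below, CHAC1 and ASNS held the CARE core and CRELD2 the ERSE. DDIT3, WARS1, PSAT1, SLC7A5, DDIT4 and DNAJB9 held none of the 3 elements in it, and SHMT2 and NUPR1 had no entry.

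The mRNA of ATF4 itself varied little. It stood at 275 TPM in TE5 scramble, 266 in shTP63, 284 in shSOX2 and 291 in shCCAT1, and at 356, 375 and 297 TPM in KYSE140 scramble, shTP63 and shSOX2. Its log2 fold changes against scramble, computed from counts normalized with the TMM method, lay between -0.19 and 0.07. TPM and normalized counts are scaled differently, so a small fold change can have another sign than the ratio of the TPM values. The shortest of its 3 coding transcripts held 87.4% to 92.8% of its counts in every library. Of the 31-base words in ATF4 transcripts, 29.4% also occur in other genes, mostly its processed pseudogenes.

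DDIT3 (CHOP), the stress-induced C/EBP factor that ATF4 activates, differed between libraries more than ATF4. Its level was 31.4 TPM in TE5 scramble, 74.8 in shTP63, 35.8 in shSOX2 and 37.02 in shCCAT1, and 44.7, 68.3 and 40.6 TPM in KYSE140 scramble, shTP63 and shSOX2. The shTP63 library was the highest of each line. With shTP63, the log2 fold change of DDIT3 was 1.10 in TE5 (95% counting interval 1.01 to 1.19) and 0.58 in KYSE140 (0.49 to 0.66). DDIT3 shares 29.6% of its 31-base words with transcripts of other genes, chiefly MARS1 which overlaps it. MARS1 itself had log2 fold changes of 0.20 and 0.26 in these comparisons.

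CHAC1, which degrades glutathione and is a target of ATF4 and DDIT3, was also highest in the shTP63 library of each line, at a much lower level. It stood at 8.86, 17.6, 7.77 and 4.60 TPM in TE5 scramble, shTP63, shSOX2 and shCCAT1 and at 2.67, 7.002 and 3.001 TPM in KYSE140 scramble, shTP63 and shSOX2. With shTP63, its log2 fold change was 0.88 in TE5 (0.75 to 1.02) and 1.35 in KYSE140 (1.12 to 1.60). In TE5 shCCAT1 it was -0.99 (-1.17 to -0.81), the lowest of all 38 genes there. The bars of DDIT3 and CHAC1 in the plot of levels are tallest in the shTP63 library of each line, whereas those of ATF4 are of similar height.

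**Figure D1:**
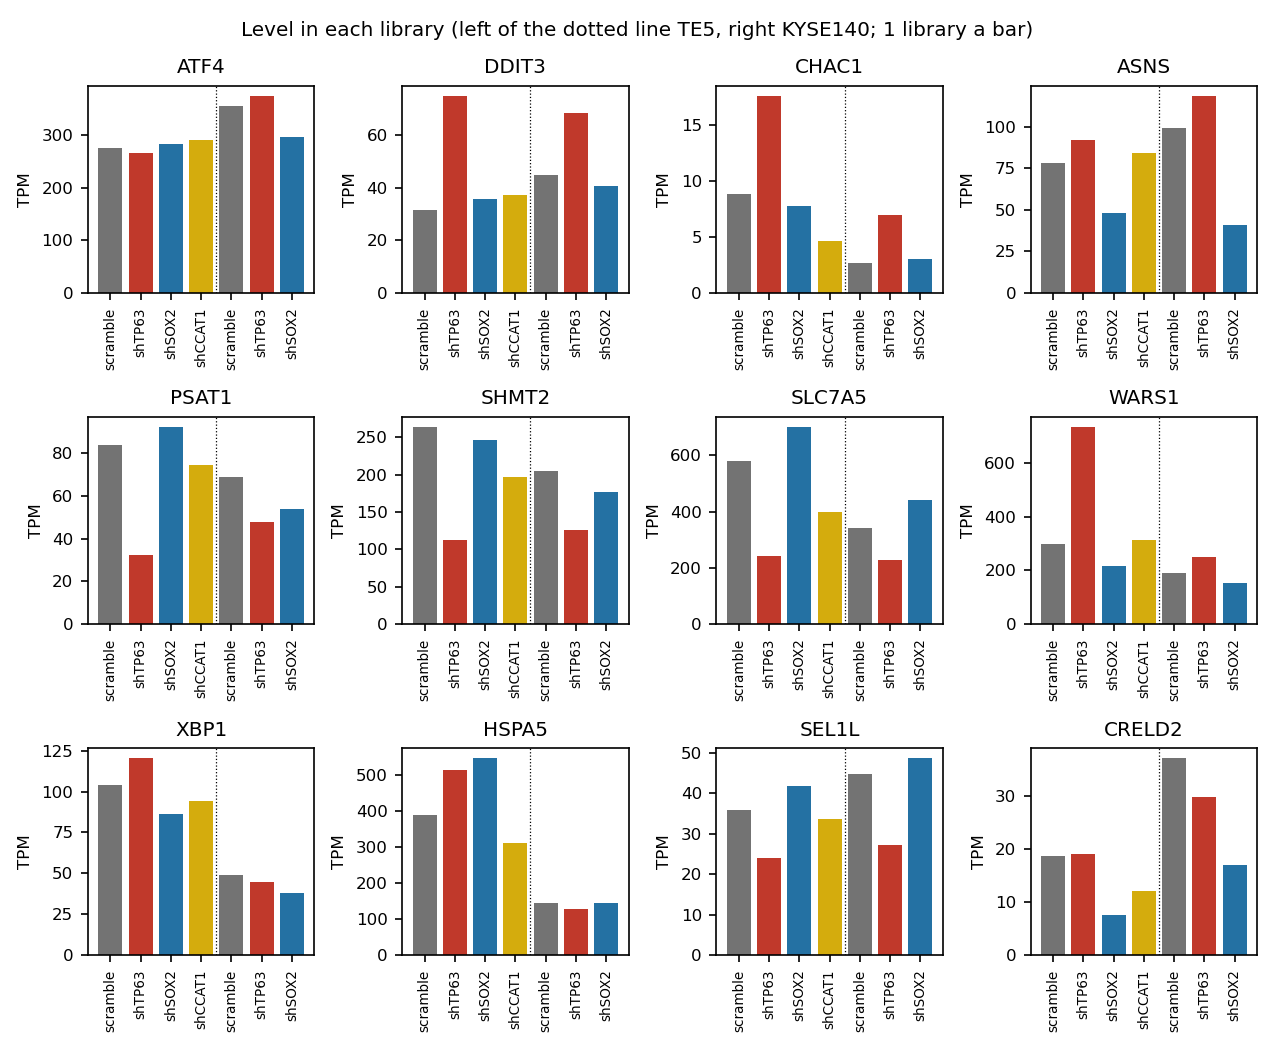
Level of 12 genes in each library, in TPM, with 1 bar per library (grey scramble, red shTP63, blue shSOX2, yellow shCCAT1), TE5 left and KYSE140 right of the dotted line. In each line DDIT3 and CHAC1 are highest in the shTP63 library, SHMT2, SLC7A5, PSAT1 and SEL1L are lowest there, and ASNS and CRELD2 are lowest in the shSOX2 library.

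TRIB3 and PPP1R15A had smaller log2 fold changes with shTP63 than DDIT3 in each line. TRIB3, a pseudokinase that restrains ATF4, stood at 39.0, 40.9, 39.3 and 28.0 TPM in TE5 scramble, shTP63, shSOX2 and shCCAT1 and at 21.0, 21.9 and 16.4 TPM in KYSE140 scramble, shTP63 and shSOX2, and its log2 fold changes upon TP63 silencing were -0.07 and 0.06. PPP1R15A (GADD34), which directs a phosphatase to eIF2, stood at 64.1, 106, 68.6 and 66.0 TPM in TE5 and at 50.5, 52.4 and 40.5 TPM in KYSE140, in the same order of libraries. Both were highest by TPM in the shTP63 library of each line, and PPP1R15A had a log2 fold change of 0.58 in TE5 shTP63 and 0.02 in KYSE140 shTP63. CEBPB, a partner of ATF4, stood at 79.5, 70.8, 65.9 and 64.3 TPM in TE5 and at 20.7, 13.4 and 22.9 TPM in KYSE140. CEBPG, another partner, stood at 16.8, 17.2, 15.9 and 18.0 TPM in TE5 and at 56.4, 55.1 and 39.7 TPM in KYSE140, so the partners were ranked oppositely in the lines. ATF5, which resembles ATF4, ranged from 16.6 to 27.4 TPM over the 7 libraries, and its longest transcript held 83.1% to 93.2% of its counts.

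NUPR1, a small chromatin-associated stress protein, stood at 40.3, 60.9, 45.0 and 25.4 TPM in TE5 scramble, shTP63, shSOX2 and shCCAT1. In KYSE140 it stood at 8.62, 21.2 and 15.5 TPM in scramble, shTP63 and shSOX2. Both knockdown libraries of KYSE140 were above scramble, at log2 fold changes of 1.34 (1.15 to 1.54) for shTP63 and 1.03 (0.82 to 1.24) for shSOX2. The value for shSOX2 was under 1 with RLE size factors, with library totals and with TPM. NUPR1 shares 31.3% of its 31-base words with other genes.

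PSAT1 and SHMT2, genes of serine and glycine metabolism that ATF4 activates, were below scramble with shTP63 in both lines. PSAT1, the aminotransferase of serine synthesis, stood at 83.8 TPM in TE5 scramble, 32.4 in shTP63, 92.3 in shSOX2 and 74.6 in shCCAT1, and at 68.7, 47.6 and 53.8 TPM in KYSE140 scramble, shTP63 and shSOX2. SHMT2, which makes glycine from serine in mitochondria, stood at 264, 112, 246 and 197 TPM in TE5 and at 205, 126 and 176 TPM in KYSE140. Both were lowest in the shTP63 library of each line. The log2 fold change of PSAT1 was -1.54 (-1.60 to -1.49) in TE5 and -0.56 in KYSE140, and that of SHMT2 was -1.30 (-1.34 to -1.27) and -0.72 (-0.76 to -0.69).

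The first and last enzymes of serine synthesis moved less. PHGDH stood at 118, 94.5, 121 and 89.5 TPM in TE5 and at 265, 277 and 258 TPM in KYSE140. PSPH stood at 83.4, 77.0, 71.7 and 73.2 TPM in TE5 and at 106, 85.2 and 62.0 TPM in KYSE140. Their log2 fold changes upon TP63 silencing were -0.47 and 0.03 for PHGDH and -0.27 and -0.31 for PSPH. By TPM, PSPH was lowest in the shSOX2 library of each line, whereas its log2 fold changes with shSOX2 were -0.18 in TE5, the smallest of the 3 there, and -0.62 in KYSE140.

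ASNS and MTHFD2 were lowest upon SOX2 silencing instead. ASNS, which makes asparagine and is the gene in which the CARE was described, stood at 78.2 TPM in TE5 scramble, 92.1 in shTP63, 47.9 in shSOX2 and 83.9 in shCCAT1, and at 99.3, 118 and 40.6 TPM in KYSE140 scramble, shTP63 and shSOX2. The shSOX2 library was the lowest of each line, although SOX2 itself was reduced much less in KYSE140. The log2 fold change was -0.77 (-0.83 to -0.72) in TE5 and -1.32 (-1.38 to -1.26) in KYSE140. MTHFD2, the mitochondrial folate enzyme, stood at 127, 143, 105 and 129 TPM in TE5 and at 121, 127 and 57.5 TPM in KYSE140, at log2 fold changes of -0.24 and -0.90 upon SOX2 silencing. Both genes share many 31-base words with other loci, 47.6% for ASNS and 41.0% for MTHFD2, so their counts are less certain.

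The amino acid transporters divided. SLC7A5, the light chain of the LAT1 transporter of leucine and other large neutral amino acids, stood at 581 TPM in TE5 scramble, 242 in shTP63, 702 in shSOX2 and 399 in shCCAT1, and at 343, 228 and 441 TPM in KYSE140 scramble, shTP63 and shSOX2. The order shTP63, scramble, shSOX2 held in each line. SLC3A2, the heavy chain of the same transporter, stood at 549, 602, 668 and 641 TPM in TE5 and at 375, 355 and 460 TPM in KYSE140. Upon TP63 silencing the log2 fold change of SLC7A5 was -1.46 in TE5 and -0.63 in KYSE140, and that of SLC3A2 was -0.12 and -0.19. SLC7A1, the carrier of arginine and lysine, stood at 32.3, 27.2, 34.8 and 29.1 TPM in TE5 and at 46.5, 37.7 and 52.0 TPM in KYSE140, also lowest upon TP63 and highest upon SOX2 silencing. The glutamine carrier SLC1A5 ranged from 69.1 TPM in KYSE140 shSOX2 to 118 in TE5 shSOX2, with a log2 fold change of -0.82 in TE5 shTP63 and of -0.07 in KYSE140 shTP63.

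Of the tRNA synthetases among the 38 genes, WARS1, which charges tryptophan and is also induced by interferon, stood at 297 TPM in TE5 scramble, 734 in shTP63, 217 in shSOX2 and 313 in shCCAT1. In KYSE140 it stood at 189, 249 and 153 TPM in scramble, shTP63 and shSOX2. In each line the shTP63 library was highest and the shSOX2 library lowest. With shTP63, WARS1 had a log2 fold change of 1.13 (1.11 to 1.15) in TE5 and 0.32 (0.29 to 0.35) in KYSE140. CARS1, which charges cysteine, ranged from 29.1 TPM in TE5 shCCAT1 to 48.5 in KYSE140 shTP63, and its log2 fold changes lay between -0.28 and 0.28. In TE5 its levels were 32.3, 40.4, 37.1 and 29.1 TPM, and in KYSE140 37.4, 48.5 and 30.5 TPM.

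DDIT4 (REDD1), which restrains mTORC1, and the lipoprotein receptor VLDLR were set apart by cell line more than by shRNA. DDIT4 stood at 79.4, 84.9, 159 and 61.4 TPM in TE5 scramble, shTP63, shSOX2 and shCCAT1 and at 1106, 1078 and 789 TPM in KYSE140 scramble, shTP63 and shSOX2. SOX2 silencing gave a log2 fold change of 1.01 (0.97 to 1.05) in TE5 and of -0.32 in KYSE140. VLDLR stood at 4.44, 5.79, 7.96 and 3.40 TPM in TE5 and at 36.9, 43.0 and 44.4 TPM in KYSE140, and was highest in the shSOX2 library of each line.

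The mRNAs of the sensors ATF6 and ERN1 were low. ATF6 stood at 15.7, 20.9, 17.5 and 16.5 TPM in TE5 scramble, shTP63, shSOX2 and shCCAT1 and at 7.73, 9.41 and 8.74 TPM in KYSE140 scramble, shTP63 and shSOX2. ERN1 stood at 5.55, 9.41, 6.70 and 5.92 TPM in TE5 and at 6.14, 6.85 and 5.87 TPM in KYSE140. ERN1 had its highest log2 fold change in TE5 shTP63, 0.65 (0.56 to 0.74), against 0.06 in KYSE140 shTP63. With shSOX2 it was 0.31 in TE5 and 0.32 in KYSE140. XBP1 stood at 104, 121, 86.1 and 94.5 TPM in TE5 and at 49.2, 44.8 and 38.1 TPM in KYSE140, so that every TE5 library was above every KYSE140 library.

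The share of XBP1 in its spliced form could be read apart from its level. The annotation places the stretch that IRE1 removes at chr22:29192116-29192141 of hg19, minus strand, inside a coding exon. The 2 bases after it are the same as its first 2, so a stretch shifted along by 1 or 2 bases would leave the same spliced sequence. The annotated stretch is shown in capitals with 2 bases on each side as the unspliced transcript carries it.
XBP1, removed stretch of 26 bases: ccGCAGCACTCAGACTACGTGCACCTCTgc
Of the XBP1 transcripts, 1 (ENST00000344347) lacks it. It held 8.07% of XBP1 counts in TE5 scramble (exact binomial 95% interval 7.51 to 8.65), 5.03% in shTP63 (4.66 to 5.43), 3.36% in shSOX2 (2.97 to 3.78) and 1.07% in shCCAT1 (0.886 to 1.29). In KYSE140 it held 15.5% in scramble (14.3 to 16.8), 8.63% in shTP63 (7.84 to 9.44) and 14.9% in shSOX2 (13.7 to 16.2). Scramble had the highest share in each line, and the interval of KYSE140 shSOX2 overlapped that of scramble. These intervals take each estimated count as a read of known form. They leave out the error of dividing reads among transcripts. The share comes from the authors' division of reads among near-identical transcripts, with the spliced form deposited at 1131 bases against 1791 in the annotation used here. Another coding form that keeps the stretch, ENST00000405219, held 2.75% in TE5 scramble and 8.37% in shCCAT1, and 1.36% in KYSE140 scramble and 9.04% in shSOX2.

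**Figure D2:**
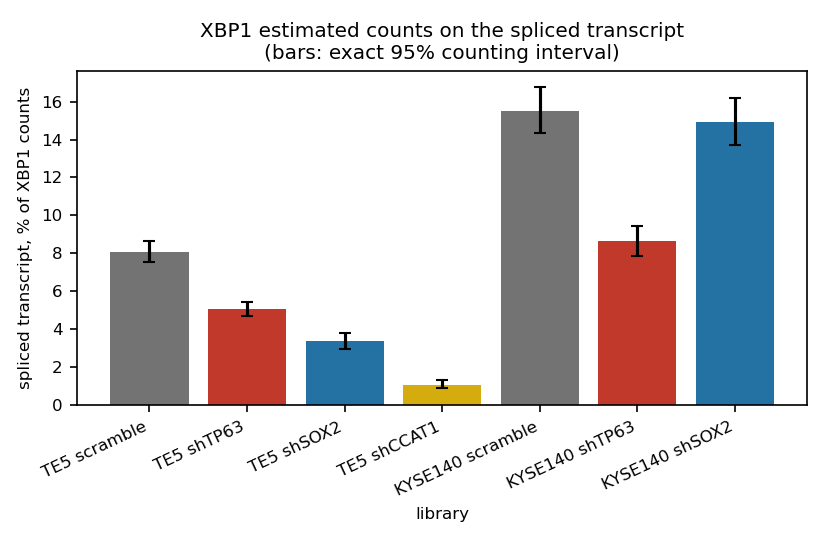
Share of XBP1 estimated counts on the spliced transcript, in percent, in each of the 7 libraries, with exact 95% counting intervals. The intervals leave out the error of dividing reads among transcripts. TE5 shCCAT1 is lowest at 1.07% and KYSE140 scramble highest at 15.5%.

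The ER chaperones are among the most abundant of the 38 genes. CALR, the lectin chaperone calreticulin, stood at 902, 1289, 1134 and 594 TPM in TE5 scramble, shTP63, shSOX2 and shCCAT1 and at 619.8, 569.5 and 574 TPM in KYSE140 scramble, shTP63 and shSOX2. HSPA5 (BiP), the HSP70 chaperone that holds the sensors inactive, stood at 388, 513, 547 and 312 TPM in TE5 and at 145, 127 and 146 TPM in KYSE140. The log2 fold changes of HSPA5 were 0.25 in TE5 shTP63, 0.52 in TE5 shSOX2 and -0.42 in TE5 shCCAT1, and -0.21 and 0.18 in KYSE140. HSP90B1 (GRP94) ranged from 494 TPM in TE5 shCCAT1 to 795 in TE5 shSOX2.

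The disulfide isomerases PDIA4 and PDIA6 were lower in TE5 shCCAT1 than in the other TE5 libraries. PDIA4 stood at 142, 146, 161 and 90.9 TPM in TE5 and at 129.6, 116 and 119.6 TPM in KYSE140. PDIA6 stood at 216, 269.99, 223 and 179 TPM in TE5 and at 321, 341 and 201 TPM in KYSE140, where shSOX2 was lowest. SDF2L1, a co-factor of the J proteins, stood at 36.0, 29.8, 33.5 and 23.5 TPM in TE5 and at 37.8, 30.3 and 35.5 TPM in KYSE140. The secreted MANF ranged from 52.3 to 107 TPM over the 7 libraries, with 80.6, 85.1, 107 and 85.9 TPM in TE5 and 61.5, 52.3 and 54.2 TPM in KYSE140.

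The J proteins and the degradation genes had other orders of libraries. DNAJB9 (ERdj4), a co-chaperone of HSPA5, stood at 10.5, 22.3, 17.1 and 13.4 TPM in TE5 scramble, shTP63, shSOX2 and shCCAT1 and at 10.7, 14.5 and 9.38 TPM in KYSE140 scramble, shTP63 and shSOX2. All 3 TE5 knockdown libraries were above scramble, at log2 fold changes of 1.03 (0.94 to 1.13), 0.87 (0.78 to 0.97) and 0.45 (0.35 to 0.55). DNAJC3 ranged from 14.5 to 28.8 TPM, at 22.9, 28.8, 25.1 and 23.0 TPM in TE5 and 18.4, 19.4 and 14.5 TPM in KYSE140. HERPUD1, which recruits proteins for ER-associated degradation, stood at 60.9, 102, 90.3 and 76.1 TPM in TE5 and at 33.6, 41.5 and 32.8 TPM in KYSE140. Its log2 fold change was above 0 in all 5 comparisons, from 0.16 to 0.53. In KYSE140 shSOX2 this rested on the scaling, since its TPM was below that of scramble.

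SEL1L, the adaptor of the same degradation complex, stood at 35.9 TPM in TE5 scramble, 24.1 in shTP63, 41.7 in shSOX2 and 33.5 in shCCAT1, and at 44.7, 27.2 and 48.7 TPM in KYSE140 scramble, shTP63 and shSOX2. The shTP63 library was lowest in each line, at log2 fold changes of -0.80 (-0.84 to -0.76) and -0.64 (-0.67 to -0.61). CRELD2, a secreted ER stress protein, stood at 18.6, 19.0, 7.47 and 12.02 TPM in TE5 and at 37.1, 29.7 and 16.8 TPM in KYSE140. The shSOX2 library was lowest in each line, at -1.24 (-1.39 to -1.09) and -0.91 (-1.01 to -0.81).

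Upon TP63 silencing in TE5, DDIT3, WARS1 and DNAJB9 rose past a log2 fold change of 1, and PSAT1, SHMT2 and SLC7A5 fell past -1, whereas 14.7% of the 24471 genes measured rose and 5.41% fell as far. The median was -0.12 over the amino acid response genes and 0.17 over the ER genes, beside 0.07 over all genes measured. Over all genes with at least 50 counts in either library the median was -0.02. With library totals or TPM the median of all genes moved up by 0.14 and 0.13, and that of the amino acid response genes turned to 0.01 and 0.07. Upon TP63 silencing in KYSE140, CHAC1 and NUPR1 rose past 1, where 8.73% of 21912 genes did, and none of the 38 fell past -1, where 4.15% did. The medians were 0.02 over the amino acid response genes, turning to -0.03 with RLE size factors, and -0.16 over the ER genes, beside 0.05 over all genes.

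Upon SOX2 silencing in TE5, DDIT4 rose past 1 and CRELD2 fell past -1, where 6.14% of 22793 genes rose and 4.8% fell as far. In KYSE140, NUPR1 rose and ASNS fell, where 6.8% of 20809 genes rose and 6.16% fell. The medians over the amino acid response genes were 0.07 in TE5 and -0.08 in KYSE140. Those over the ER genes were 0.29 in TE5 and 0.04 in KYSE140, the latter -0.05 with library totals and -0.12 with TPM. Medians over all genes were -0.01 and 0.05. The comparisons of a line share their scramble library and are set side by side only.

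Upon CCAT1 silencing in TE5, none of the 38 genes passed 1 or -1, where 11.7% of 24176 genes rose and 5.87% fell as far. CHAC1 passed -1 with RLE size factors. Of the 38 log2 fold changes 34 were below 0, against 11765 of the 24176 genes. The scaling moved both counts, to 22 of the 38 and 8078 genes with library totals and to 23 and 9380 with TPM. Of the 17574 genes with at least 50 counts in either library, 9346 were below 0. With TMM there was a median of -0.26 over the amino acid response genes and -0.22 over the ER genes, beside 0.02 over all genes. Over all genes with at least 50 counts in either library the median was -0.03. The amino acid response extremes were CHAC1 and DDIT3 (0.14), and the ER extremes PDIA4 (-0.75) and DNAJB9 (0.45). Both branch medians stayed below 0 under all 7 alternatives, the nearest to 0 being -0.0382 for the ER genes with library totals. Minimums of at least 1 and at least 50 counts could not change these medians, since all 38 genes passed them. Set against the TE5 libraries of the same lane, the median of the 38 genes was -0.27 against shTP63 and -0.42 against shSOX2, beside -0.0047 and 0.04 over all genes measured. Below -1 against shTP63 were CHAC1 (-1.87), NUPR1 (-1.21), WARS1 (-1.19) and CALR (-1.08). Below -1 against shSOX2 were DDIT4 (-1.49), VLDLR (-1.09) and CALR (-1.07), and none of the 38 was above 1. Against shTP63, only PSAT1 was above 1 (1.29), and SHMT2 (0.85) and SLC7A5 (0.76) were also above 0. These values were computed with TMM only, and the share of all genes past 1 or -1 was not counted. The shCCAT1 library exists in 1 line, so none of this has been repeated.

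**Figure D3:**
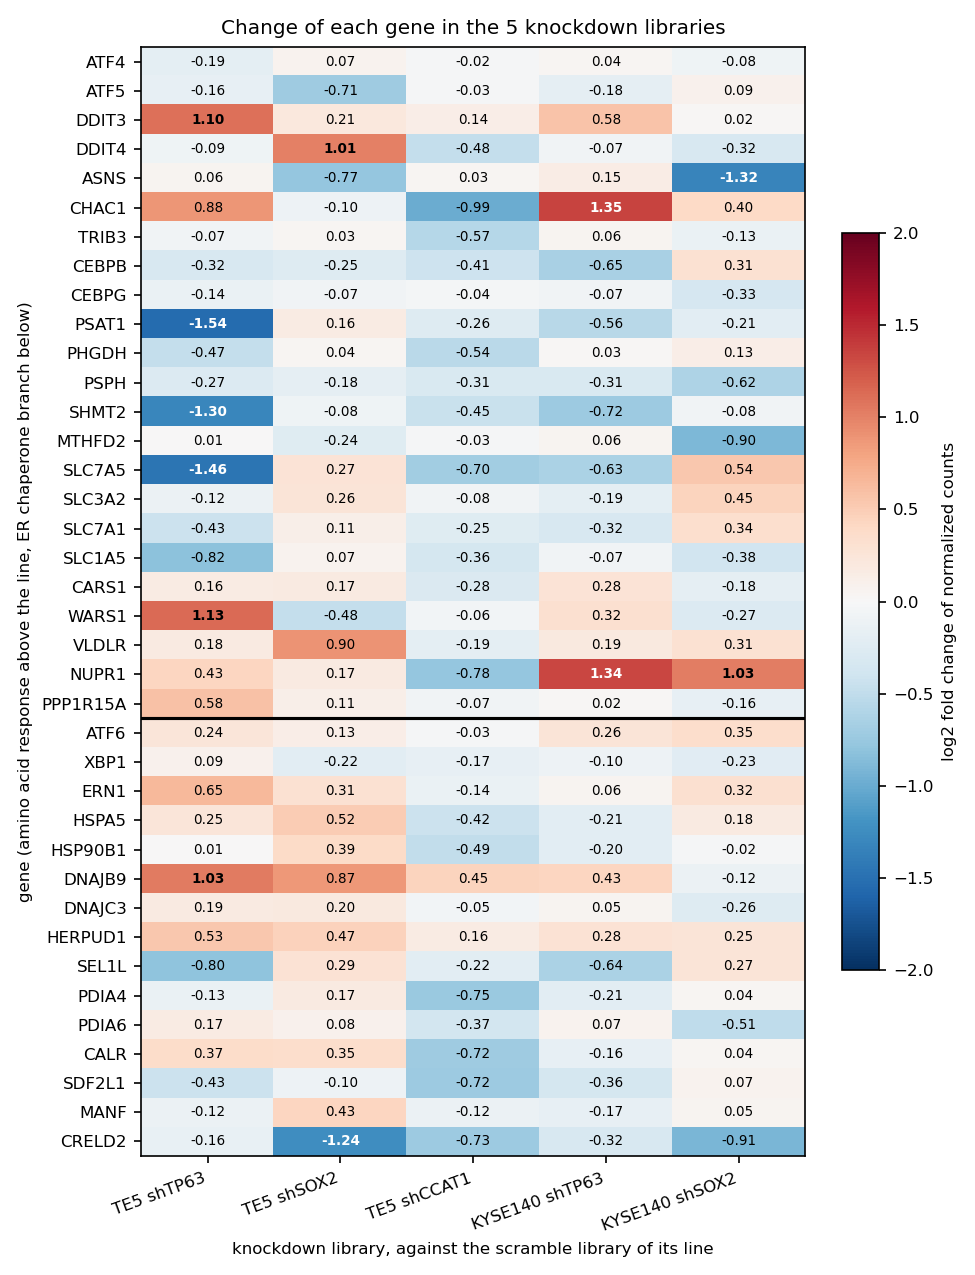
Log2 fold change of normalized counts of each of the 38 genes in the 5 knockdown libraries against scramble (red higher, blue lower, values past 1 or -1 in bold), amino acid response above the black line and ER genes below. The darkest blue fields are PSAT1 and SLC7A5 in the TE5 shTP63 column, and the shCCAT1 column is mostly pale blue with 34 values below 0 (22 with library totals and 23 with TPM).

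The lines were then taken as the replicates of a silencing, in edgeR's quasi-likelihood test over the 6 scramble, shTP63 and shSOX2 libraries with cell line as a block and 2 residual degrees of freedom. The labels name the same shRNA for a target in both lines. An effect of that shRNA on other genes and the loss of its target therefore cannot be told apart in this fit. For TP63 silencing 0 of the 38 genes passed a Benjamini-Hochberg adjusted p of 0.1, as did 0% of the 26260 features tested, and the lowest adjusted p among the 38 was 0.159. At an unadjusted p under 0.05 there were 12, against 13.1% of all features. The 6 above 0 were DDIT3 (log2 fold change 0.84 ± 0.19 SE), CHAC1 (1.11 ± 0.23), WARS1, NUPR1, DNAJB9 and HERPUD1. The 6 below 0 were SHMT2 (-1.001 ± 0.18), SLC7A5 (-1.03 ± 0.21), PSAT1, SLC7A1, SEL1L (-0.72 ± 0.13) and SDF2L1. DESeq2 on the same libraries called 9 of the 38, 4 higher and 5 lower, where it called 13.8% of the features it adjusted.

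For SOX2 silencing 0 of the 38 genes passed the adjusted p of 0.1, where 0.0533% of features did. At an unadjusted p under 0.05 there were 6, against 8.57% of features. The lowest values belonged to ASNS (-1.06 ± 0.19 SE) and CRELD2 (-1.09 ± 0.19), each with an edgeR adjusted p of 0.27. DESeq2 called these 2 genes lower and none higher, where it called 4.38% of features. SOX2 itself stood at 39.5% of scramble in TE5 shSOX2 but at 76.9% in KYSE140 shSOX2. The fit takes both libraries as the same silencing, also where it sets TP63 against SOX2 silencing.

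TP63 and SOX2 silencing were compared directly because these libraries of a line were run on the same lane. Here 4 of the 38 genes passed the adjusted p of 0.1, where 2.21% of features did: ASNS was higher with shTP63 than with shSOX2, and SLC7A5, SHMT2 and SEL1L were lower. These genes lie, in hg19, at chr7:97480989-97501854 (ASNS), chr16:87863629-87903113 (SLC7A5), chr12:57623356-57628718 (SHMT2), chr14:81937891-82000197 (SEL1L). At an unadjusted p under 0.05 there were 12 of the 38, against 16% of features. The edgeR log2 difference was 1.17 ± 0.19 SE for ASNS (adjusted p = 0.0708), -1.41 ± 0.21 for SLC7A5 (adjusted p = 0.0646), -0.90 ± 0.18 for SHMT2 (adjusted p = 0.0991) and -0.97 ± 0.13 for SEL1L (adjusted p = 0.0602). Each had the same sign within the lane of TE5, at 0.83, -1.73, -1.22 and -1.09, and within that of KYSE140, at 1.47, -1.17, -0.64 and -0.91. All 4 calls were lost without the cell line block, with transcripts matched by ID only, and without either scramble library. SHMT2 was also lost with library totals (edgeR adjusted p = 0.125), without TE5 shTP63 (0.124), without TE5 shSOX2 (0.225) and without KYSE140 shSOX2 (0.112). ASNS was also lost without KYSE140 shSOX2 (0.15), and SLC7A5 and SEL1L without TE5 shSOX2 (0.103 and 0.113). Without KYSE140 shTP63 there were 9 calls. DESeq2 called 12, 6 in each direction, including these 4, where it called 16.1% of features.

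**Figure D4:**
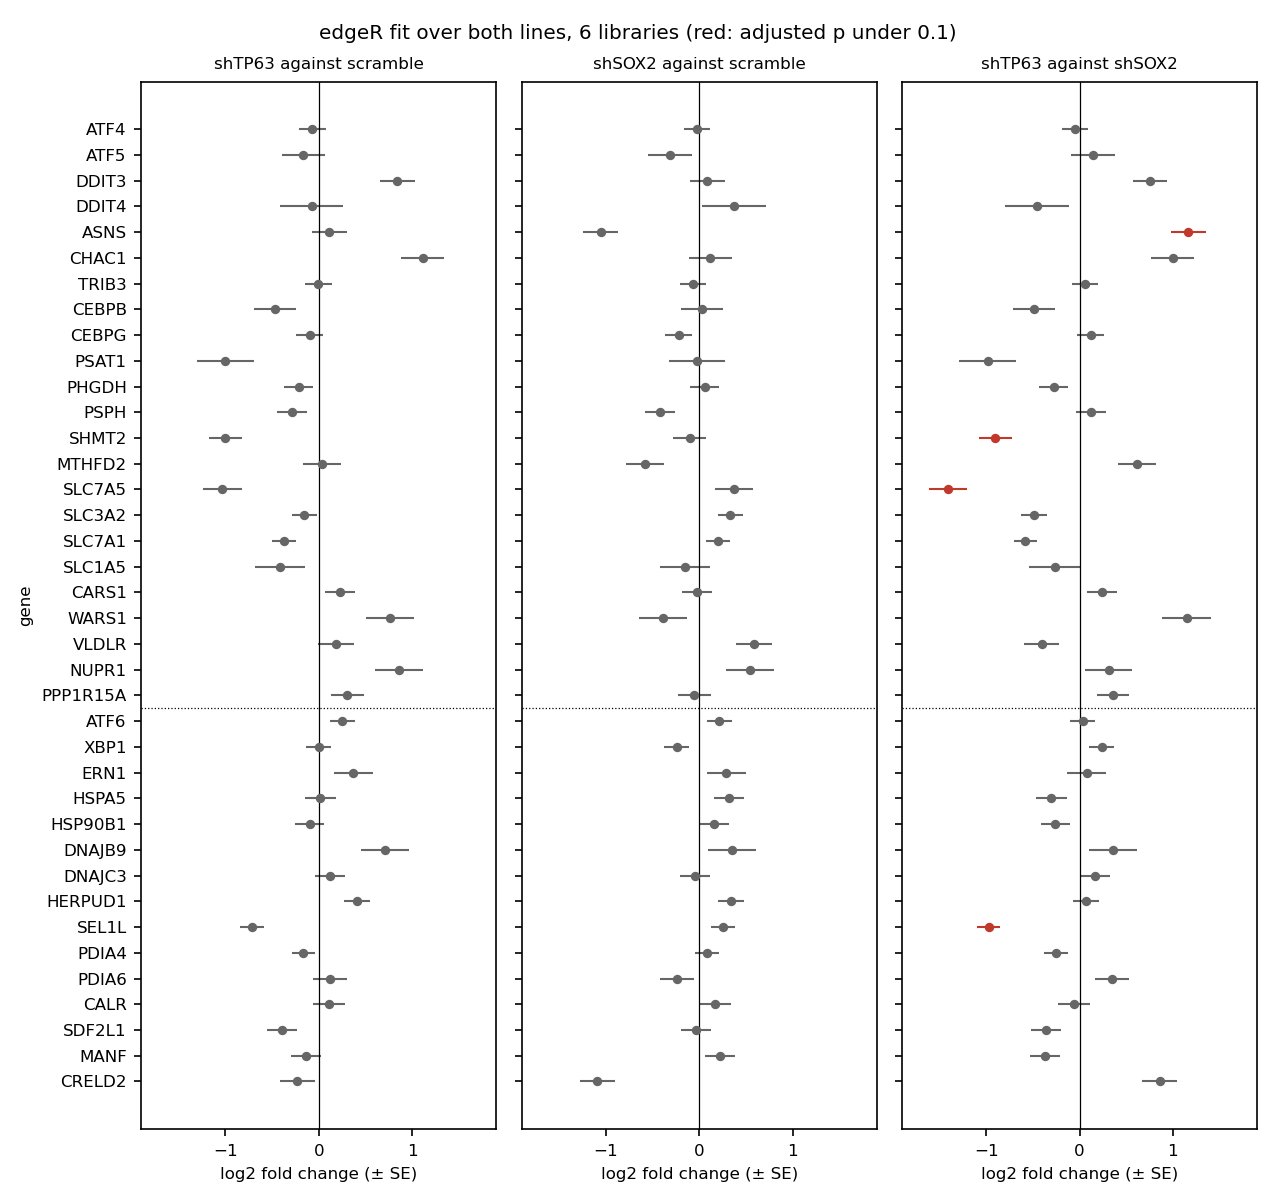
Log2 fold change with its standard error from the edgeR fit over 6 libraries, for shTP63 against scramble, shSOX2 against scramble and shTP63 against shSOX2, 1 row per gene, with the amino acid response genes above the dotted line and adjusted p under 0.1 in red. Only ASNS, SHMT2, SLC7A5 and SEL1L are red, all in the third panel. Standard errors were derived from the F statistic of the test.

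The 3' untranslated regions of the 38 genes were searched for the 7-base word most strongly tied to lower values in each silencing, a description of sites that a small RNA could pair with. Among 16146 words in 11003 genes, AGAACAC ranked first for TP63 silencing: genes that held it (10.6%) had a median of -0.21 on the log2 scale, and the rest -0.05. GAAGGAT ranked first for SOX2 silencing, at -0.13 in the 9.88% of genes with it and 0.01 in the rest. Each word was picked by these same values, so a gap between the medians follows from the choice and is not a test. AGAACAC occurs in 5 of the 38 genes (CEBPB, CEBPG, NUPR1, DNAJC3 and SEL1L) and GAAGGAT in 2 (CEBPG and CRELD2). The 2 sites shown, with the word in capitals and hg19 coordinates, are those of SEL1L and CRELD2, the carriers with the lowest value in each silencing. The other carriers of AGAACAC had edgeR log2 fold changes upon TP63 silencing of -0.47 (CEBPB), -0.10 (CEBPG), 0.12 (DNAJC3) and 0.86 (NUPR1), so carriers lay on both sides of 0. CEBPG stood at -0.22 upon SOX2 silencing.
SEL1L, chr14:81942344-81942373, minus strand, word begins 954 bases after the stop codon: tttttgcacaaAGAACACatcaccttcctg
CRELD2, chr22:50320974-50321003, plus strand, word begins 30 bases after the stop codon: taaattattcaGAAGGATgtcccgtggaaa
SHMT2, SLC7A5 and PSAT1 do not hold AGAACAC, and ASNS and MTHFD2 do not hold GAAGGAT. The shRNA sequences were not compared with these words. The part of these words in the values of SEL1L and CRELD2 was not tested.

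The cell lines differed in most of the 38 genes, as they did in most features. Between KYSE140 and TE5, 28 of the 38 genes passed the adjusted p of 0.1 in the edgeR fit, 14 in each direction, beside 64% of all features. DESeq2 called 27 of the 38, beside 51.4% of features. The amino acid response genes most above 0 in KYSE140 were DDIT4 (log2 difference 3.56 ± 0.31 SE), VLDLR (2.89 ± 0.16), CEBPG (1.83 ± 0.12) and PHGDH (1.55 ± 0.13), followed by SLC7A1, ATF4 (0.58 ± 0.12), DDIT3, PSPH and CARS1. Those below 0 were CEBPB (-1.70 ± 0.19), NUPR1 (-1.53 ± 0.21), CHAC1 (-1.11 ± 0.19), TRIB3, WARS1, PPP1R15A and SLC3A2. In the ER branch HSPA5 (-1.52 ± 0.14), XBP1 (-1.04 ± 0.11), HERPUD1 (-0.93 ± 0.12), ATF6, CALR, MANF and DNAJC3 were lower in KYSE140. CRELD2 (1.26 ± 0.15), SEL1L, PDIA6, ERN1 and SDF2L1 were higher there. The edgeR fit gave an adjusted p of 0.00028 for HSPA5 and of 5.99e-05 for VLDLR. The lines also differ in lane, which cannot be told apart from the line here.

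**Figure D5:**
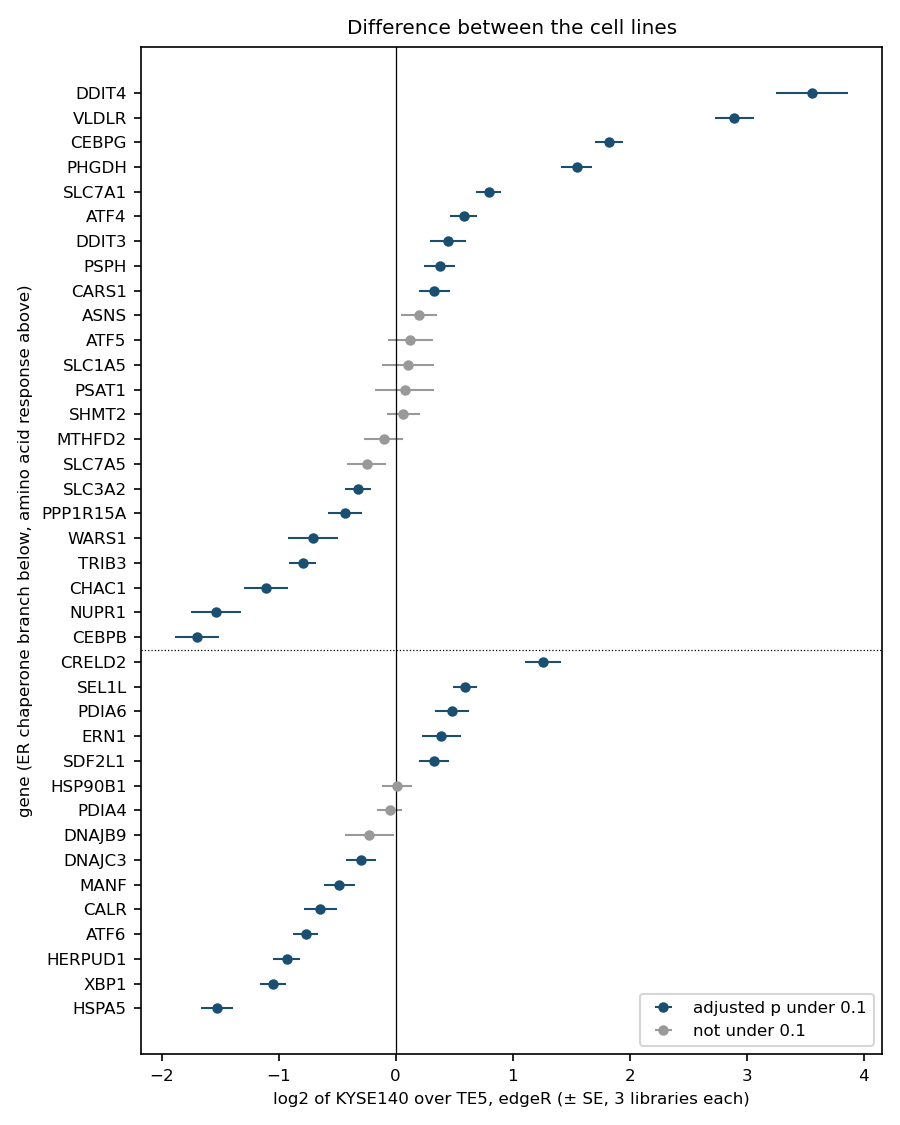
Log2 of KYSE140 over TE5 from the edgeR fit, with standard errors, over 3 libraries of each line, for the amino acid response genes (above the dotted line) and the ER genes (below), dark where the adjusted p was under 0.1. DDIT4 and VLDLR lie farthest to the right and CEBPB, NUPR1 and HSPA5 farthest to the left. Standard errors were derived from the F statistic of the test.

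A further 81 genes of the same pathways were examined, from lists chosen with earlier results of these data known. Their counts and medians are therefore descriptions only. Of the 11 eIF2 kinases and eIF2 factors, EIF2S1 (the alpha subunit of eIF2 that the kinases phosphorylate) was lower with shTP63 than with shSOX2, by an edgeR log2 difference of -0.93 ± 0.18 SE (adjusted p = 0.0926). It stood at 315, 151, 332 and 327 TPM in TE5 scramble, shTP63, shSOX2 and shCCAT1 and at 174, 121 and 186 TPM in KYSE140 scramble, shTP63 and shSOX2. Of the 18 tRNA synthetases none passed the adjusted p in the edgeR contrasts of the silencings, while DESeq2 called 2 lower with TP63 silencing and, between TP63 and SOX2 silencing, 1 higher and 1 lower. NARS1, which charges asparagine, had the lowest value upon TP63 silencing, -1.15 ± 0.21 SE at an edgeR adjusted p of 0.159. Its 3' untranslated region holds AGAACAC, and the part of the word in this value was not tested. AGAACAC was in 8 of the 81 genes, beside 10.6% of the 11003 genes ranked. Its other carriers lay between -0.57 (EIF2B1) and 0.94 (SLC3A1) upon TP63 silencing in the edgeR fit.

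Of the 30 ER folding and degradation genes, EDEM3, which trims sugars from misfolded glycoproteins, was higher with shTP63 than with shSOX2 (edgeR log2 difference 1.42 ± 0.20 SE, adjusted p = 0.0636). It was lowest in the shSOX2 library of each line, at 4.08 TPM against 7.47 in TE5 scramble and 3.33 against 7.92 in KYSE140 scramble, and its 3' untranslated region holds GAAGGAT. The part of that word was not tested. GAAGGAT was in 8 of the 81 genes, beside 9.88% of the genes ranked. Its other carriers lay between -0.08 (MBTPS1) and 0.36 (SLC7A11) upon SOX2 silencing in the edgeR fit. The disulfide isomerases TXNDC5 (-1.13 ± 0.19, adjusted p = 0.0774) and P4HB (-0.75 ± 0.13, adjusted p = 0.0768) were lower with shTP63 than with shSOX2 in edgeR.

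Of the 22 further amino acid response targets, 5 rose past 1 in TE5 shTP63, where 14.7% of all genes did, and 1 in KYSE140 shTP63, where 8.73% did. None fell past -1 in either. Those 5 were ATF3, GDF15, LAMP3, FGF21 and SLC3A1, the last 2 at under 1 TPM in every library. Their median upon TP63 silencing in the edgeR fit was 0.40, beside 0.04 over all features, and 0 of 21 tested passed the adjusted p of 0.1 (DESeq2 called 4 higher). GDF15, a stress-induced cytokine, passed 1 in 2 comparisons and stood at 186, 706, 372 and 243 TPM in TE5 scramble, shTP63, shSOX2 and shCCAT1 but at 8.41, 13.4 and 6.10 TPM in KYSE140 scramble, shTP63 and shSOX2. FGF21, a hormone of the same response, also passed 1 in 2 comparisons, at 0.205 TPM in TE5 scramble and 0.83 in shTP63 and at 0.204 TPM in KYSE140 shTP63 against a value of 0 in scramble. ATF3, a factor induced with DDIT3, stood at 25.6, 92.7, 36.2 and 25.3 TPM in TE5 and at 18.8, 31.3 and 16.2 TPM in KYSE140, so that it too was highest in the shTP63 library of each line.

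Between the lines 58 of these 81 genes passed the adjusted p of 0.1, 29 in each direction, beside the 64% of features given above. Of the eIF2 genes, EIF2AK1 (log2 difference 0.79) and EIF2B4 (0.51) were higher in KYSE140. EIF2AK2, EIF2AK4, EIF2S1, EIF2B1, EIF2B2, EIF2B5 and PPP1R15B were lower there, from -0.35 to -2.13 (EIF2AK2, the kinase PKR). Of the tRNA synthetases, those higher included FARSA, GARS1, IARS1, LARS1, MARS1, QARS1, SARS1 and YARS1, from 0.43 (FARSA) to 1.23 (MARS1), and AARS1, KARS1, RARS1 and VARS1 were lower, from -0.43 to -0.80. Of the further targets, STC2, CBS, ALDH1L2, MTHFD1L, ALDH18A1, GPT2, SLC38A2, SLC43A1, SLC3A1, XPOT and KLHL24 were higher, from 0.32 to 4.07 (KLHL24). ATF3, SESN2, SLC7A11 and GDF15 were lower, from -0.68 to -5.06 (GDF15). Of the ER genes, ERO1A, DERL1, DERL2, OS9, VCP, SEC61B and CREB3L2 were higher, from 0.30 to 1.03. PDIA3, CANX, DNAJB11, DNAJC10, EDEM1, EDEM2, SYVN1, SEC61A1, SEC24D, SERP1, CREB3, ATF6B, MBTPS1 and MBTPS2 were lower, from -0.33 to -2.42.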

How the data were processed

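RNA-seq data of 7 libraries were analysed, 1 per condition and line. With cell line as a block, a p-value across lines rests on how unevenly the shRNA conditions differ between the lines. The edgeR test also draws the spread of each gene toward that of all features. Paired-end reads of 100 bp had been quantified with kallisto against transcripts of Ensembl release 82 (hg19), and the authors supplied 1 file per library with estimated counts, TPM values and lengths of transcripts. The kallisto version is not given in the sources used here. The deposited estimated counts are not scaled between libraries. The deposited TPM values are scaled to 1 total per library. The labels' processing notes also name DESeq2.

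Transcripts were assigned to genes by ID with GENCODE 44 mapped to hg19, which covered 93.6% of counts. A further 7011 transcripts took the gene of the matched rows around them, a step added after the files were seen that matters for CHAC1, MTHFD2 and CARS1. In all 97.3% of counts were assigned. Counts were scaled with TMM (edgeR 4.0.16, R 4.3.3). Within a line, log2((shRNA + 1)/(scramble + 1)) was taken where either library reached 10 counts, with an exact 95% interval for counting error only and no test. Across lines, counts rounded to whole numbers were tested with edgeR's quasi-likelihood test (filterByExpr, Benjamini-Hochberg over 26260 features, adjusted p under 0.1). The SE given with an edgeR value was derived from the test, as the size of the log2 fold change over the square root of the F statistic. DESeq2 1.42.0 was an alternative. Scripts were tested on simulated data. Words of 7 bases were ranked over genes whose lowest library had 100 counts or more, after a linear correction for length, GC share and expression. Python 3.11.15 was used.

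The members and lists were chosen with earlier results of these data known. Named with the value in every library were ATF4, DDIT3, XBP1, HSPA5, ATF6 and ERN1, members past 1 or -1 or an adjusted p of 0.1 in any comparison, and the extremes of each branch. Other pathway genes were named when past 1 or -1 in 2 comparisons or at an adjusted p under 0.1, and NARS1 and ATF3 after their values were seen. Squamous, fibroblast, leukocyte, endothelial and simple columnar marker lists were examined.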

Additional observations from a re-analysis of the deposited data

How the results depend on the processing

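Of the genes past 1 or -1 within a line, 12 values were recomputed under 7 alternatives. Minimums of at least 1 and at least 50 counts could not change them, because the lowest count of the 38 genes was 181 (CHAC1, KYSE140 scramble). Of the 84 values, 81 stayed past 1 in size. The other 3 were all NUPR1 in KYSE140 shSOX2, where the count of genes that rose was 0 with RLE size factors, library totals and TPM. In the same library TPM gave 3 that fell, and in TE5 shCCAT1 1 gene fell with RLE size factors and with transcripts matched by ID only (an alternative chosen after seeing the data). None of these values was of the opposite sign under any alternative.

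The branch medians depended on the scaling. With library totals the amino acid response medians were 0.0145 in TE5 shTP63, -0.0782 in TE5 shCCAT1, 0.0829 in KYSE140 shTP63 and -0.17 in KYSE140 shSOX2, and the ER medians were 0.30 in TE5 shTP63, -0.0382 in TE5 shCCAT1 and -0.0469 in KYSE140 shSOX2. With TPM the amino acid response medians were 0.0703 in TE5 shTP63, -0.17 in TE5 shCCAT1 and -0.26 in KYSE140 shSOX2, and the ER medians were 0.32 in TE5 shTP63, 0.21 in TE5 shSOX2, -0.14 in TE5 shCCAT1 and -0.12 in KYSE140 shSOX2. RLE size factors gave -0.0255 for the amino acid response in KYSE140 shTP63. The 34 genes below 0 in TE5 shCCAT1 became 22 with library totals and 23 with TPM. Library totals shifted the median of all genes by 0.14 in TE5 shTP63 and 0.18 in TE5 shCCAT1.

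Over both lines, 0 genes called for TP63 became 9 with DESeq2 and 5 without the expression filter. The 0 for SOX2 became 2 with each. The 4 called between TP63 and SOX2 became 12 with DESeq2, 10 without the filter, 0 without the cell line block and 0 with transcripts matched by ID only. The cause was not tested. Leaving out 1 library in turn gave 0 to 7 genes for TP63 (7 without KYSE140 shTP63, 5 without KYSE140 shSOX2 and 1 without TE5 shSOX2), 0 to 2 for SOX2 (2 without either shTP63 library and 1 without TE5 shSOX2) and 0 to 9 between TP63 and SOX2. A line with a library left out then rests its contrast partly on the other line. The calls between the lines kept within 1.5 times of 28 under every alternative.

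By TPM the share of spliced XBP1 was 13.3%, 8.45%, 5.68% and 1.85% in TE5 scramble, shTP63, shSOX2 and shCCAT1 and 24.3%, 14.2% and 23.1% in KYSE140 scramble, shTP63 and shSOX2, in the same order as by counts. The 9-base CARE form was in 6 promoters in place of 8. With 1 library per condition, counting error is small beside the spread between lines.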
